A study of Homo sapiens with 48 samples.

Results

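The response to oncogenic RAS was described in fibroblasts in which SF3B1 had been depleted. It comprised 16 of the 48 libraries of the series, namely 8 from 4OHT-treated and 8 from DMSO-treated cells that received either of the siRNAs siSF3B1-13 and siSF3B1-16, with 4 libraries per siRNA and treatment by their titles. The cells were IMR90 ER:RAS, a fibroblast line from human lung with HRAS G12V fused to the oestrogen receptor, which 4-hydroxytamoxifen (4OHT) switches on and the solvent DMSO does not. All cells carried the fusion, were treated for 6 days before transfection and were then kept for 2 days in medium with 0.5% serum until RNA was taken, so that the response was already established when SF3B1 was depleted. The same 4OHT contrast in cells given non-targeting siRNAs (siNT1 and siNT2, 8 libraries per treatment) is given beside it, and it shares no library with the contrast in depleted cells. No library came from 4OHT-treated cells without the fusion, so the effects of 4OHT and of RAS cannot be told apart. The labels list 4 replicates per siRNA and the methods 3. The methods describe in vitro replicates in general as independent experiments, and the labels do not say how these libraries relate to cultures.

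Oncogenic RAS drives normal fibroblasts into senescence, a stable arrest held by CDK inhibitors that keep RB active, with loss of lamin B1 and silencing of genes for DNA replication and mitosis. Senescent cells also secrete interleukins, chemokines, proteases and growth factors, a programme known as the senescence-associated secretory phenotype (SASP), which depends on NF-κB, C/EBPβ and IL-1 signalling. SF3B1 is the core of the SF3b complex of the U2 snRNP, which recognises the branch point upstream of each 3′ splice site.

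SF3B1 mRNA was low in both siSF3B1 groups. Levels are given as CPM, a gene's share of the reads counted in genes after TMM scaling of library sizes, and are those of siSF3B1 cells unless siNT is named. SF3B1 (ENSG00000115524) stood at 30.4 to 35.2 CPM (median 33) with DMSO and 25.3 to 30.7 CPM (median 26.5) with 4OHT, against siNT medians of 362 and 327 CPM. Within depleted cells it was slightly lower with 4OHT, with ranges that overlapped (log2 fold change −0.27, SE 0.08, edgeR adjusted p = 0.0022). Library depth was alike in the groups compared, from 34659429 to 52734636 counts with DMSO and from 31467221 to 49222147 with 4OHT. The summed level of 7 fibroblast markers (VIM, THY1, PDGFRA, PDGFRB, S100A4, FAP and PRRX1) was 7247 to 7788 CPM with DMSO and 5821 to 6297 CPM with 4OHT, with no overlap. Epithelial markers (7 measured) summed to at most 9.61 CPM in these libraries. The 5 endothelial markers measured summed to 1.22 to 2.89 CPM with DMSO and 10.7 to 14.6 CPM with 4OHT, led by TIE1 and CLDN5, while the defining marker CDH5 had medians of 0 and 0.303 CPM. The 7 blood markers summed to 37.8 to 45.1 CPM and 87.1 to 95.3 CPM, nearly all of it CD68. The part of these markers in the changes below was not tested. In bulk RNA, fewer cells of a kind and less RNA per cell cannot be told apart.

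Most of the RAS response remained measurable in depleted cells, with secretory genes among the largest rises and matrix and mitotic genes among the falls. At a Benjamini-Hochberg adjusted p under 0.05 in edgeR's quasi-likelihood test, 3756 of 9991 genes were higher with 4OHT in siSF3B1 cells (37.6%) and 3811 lower (38.1%). A change of at least 2-fold as well was met by 703 higher (7.04%) and 997 lower genes (9.98%), against 760 (7.61%) and 1089 (10.9%) in siNT cells. The 559 genes at least 2-fold higher in both made up 79.5% of those in siSF3B1 and 73.6% of those in siNT cells, and the 808 at least 2-fold lower in both made up 81% and 74.2%. Over all genes the median log2 fold change was 0.00 in both, the median absolute value was 0.38 with siSF3B1 and 0.42 with siNT, and 85% of genes had the same sign. Across genes, which are not independent replicates, the log2 fold changes had a Pearson r of 0.945. The response itself differed between siSF3B1 and siNT cells, in a test of the difference, for 1793 genes with a more positive (17.9%) and 1988 with a more negative response in depleted cells (19.9%). A total of 299 genes were called in opposite directions, but 1 alone (FAM108C1) was at least 2-fold in each.

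**Figure D1:**
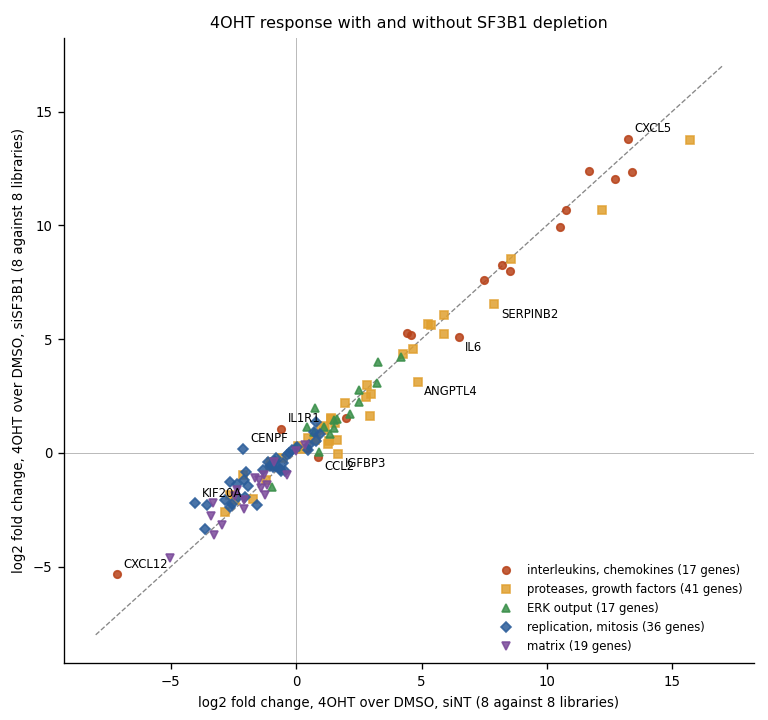
The log2 fold change with 4OHT in siNT cells (x axis) and in siSF3B1 cells (y axis) for listed genes that passed the filter of 10000 counts, with 1 point per gene and the dashed line marking equal responses. Most points lie near the line, while CENPF, IL1R1, IGFBP3, CCL2 and ANGPTL4 lie away from it. The points include genes such as IL1B that passed the filter only through the group where they were high.

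Genes were grouped into lists by role. Where every listed gene reached 10000 counts over the 48 libraries, list counts come from that fit. Where members fell under this limit, counts over the whole list come from a fit of all 17872 genes with at least 1 count. The reason is that members that passed only through the group where they were high had to differ. The same limit holds for the adjusted p of single genes near 0 CPM with DMSO, such as IL1B, CXCL8 and CXCL5. Without the filter of 10000 counts, the log2 fold change in siSF3B1 cells was 12.36 for IL1B (edgeR adjusted p = 2.6e-44). For IL1A it was 7.62 (edgeR adjusted p = 4e-33). In that wider fit, 10.5% of genes were called at least 2-fold higher and 12.1% at least 2-fold lower with 4OHT in siSF3B1 cells, against 10.8% and 14.6% in siNT cells. Responses differed between them at an adjusted p under 0.05 in the positive direction for 10.8% and in the negative direction for 14.9% of its genes.

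The CDK inhibitors that mark senescence rose with 4OHT in depleted cells. CDKN2B, which encodes p15 and inhibits CDK4 and CDK6, stood at 32.2 to 49.7 CPM (median 38.9) with DMSO and 239.7 to 255 CPM (median 246) with 4OHT, a 6.36-fold rise (log2 fold change 2.67, SE 0.08, edgeR adjusted p = 4.1e-33). CDKN2A, which encodes p16 and ARF, was at 30.5 to 51.2 CPM (median 37.1) with DMSO and 56 to 73.1 CPM (median 64.4) with 4OHT (log2 fold change 0.73, SE 0.10, edgeR adjusted p = 3.9e-09). CDKN1A, which encodes p21, was at 1408 to 1873 CPM (median 1616) with DMSO and 1921 to 2155 CPM (median 2051) with 4OHT (log2 fold change 0.32, SE 0.06, edgeR adjusted p = 1.3e-06). The groups did not overlap for these genes, but the rise in CDKN1A was smaller than in siNT cells (log2 fold change 0.83, difference −0.51, SE 0.08, edgeR adjusted p = 1e-06). The CDKN1A medians in siNT cells were 941 CPM with DMSO and 1692 CPM with 4OHT. The rise in CDKN2B was slightly larger than with siNT (2.38, difference 0.29, SE 0.10, edgeR adjusted p = 0.02), a call lost without DMSO siSF3B1-16 replicate 4 (0.24), and that in CDKN2A differed by 0.05 (adjusted p = 0.82). In the wider fit, 1 of the 10 listed CDK inhibitors and RB family genes (CDKN2B) was called at least 2-fold higher and 4 at least 2-fold lower, counts that were the same in siNT cells. The falls were in CDKN1C (14.6 to 2.25 CPM in median), CDKN1B, CDKN2C and RBL1, with log2 fold changes of −2.81, −1.09, −3.25 and −1.03. For CDKN1C and CDKN1B the fall was smaller than with siNT (−3.66 and −1.96, adjusted p of the differences 5.1e-04 and 6e-10).

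**Figure D2:**
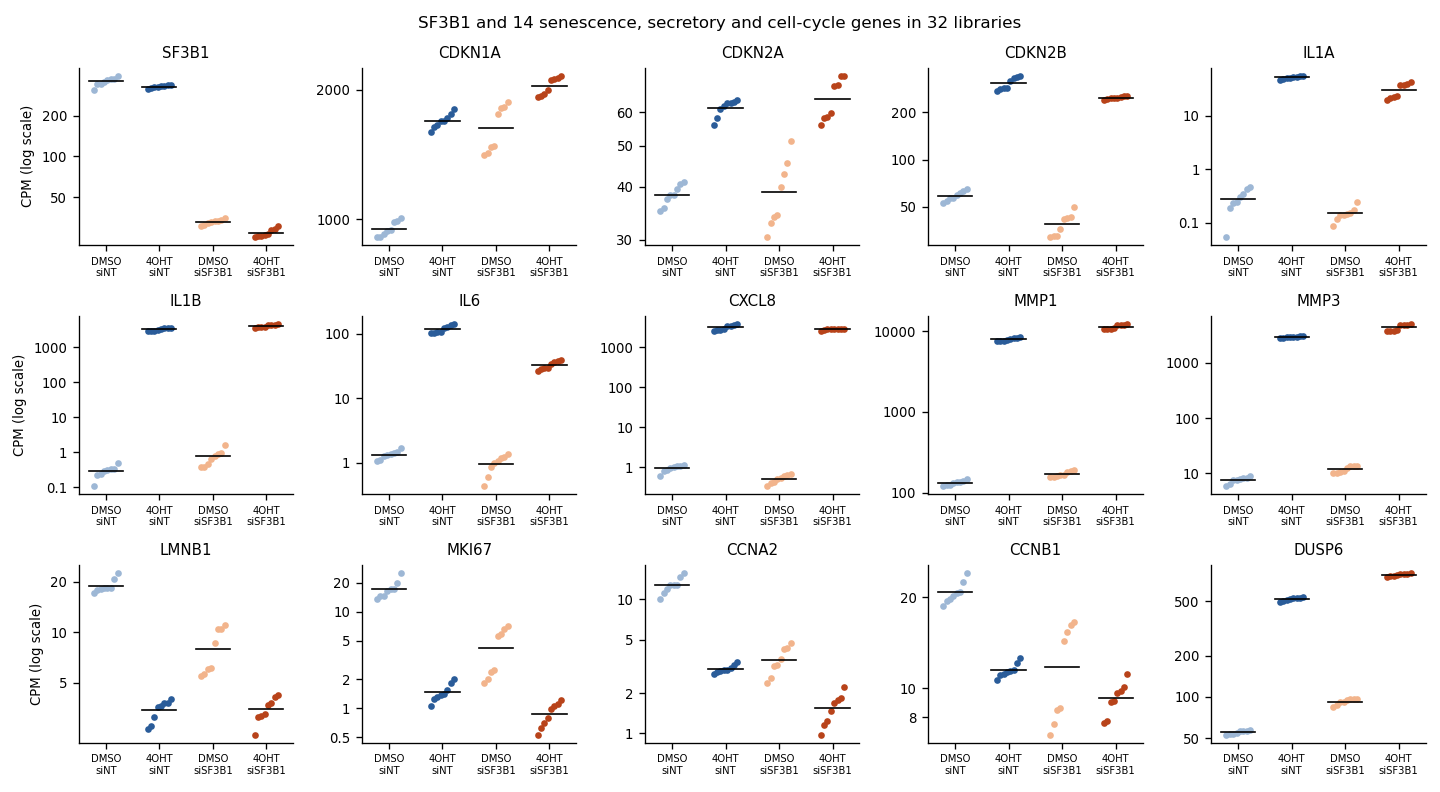
CPM of SF3B1 and 14 senescence, secretory and cell-cycle genes in each of 32 libraries, on a log axis with its own range per gene, with a point per library (sorted within a group) and a bar at the mean of 8. In the siSF3B1 groups the ranges with DMSO and 4OHT do not overlap except for SF3B1 and CCNB1.

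Of these 14 genes and SF3B1, 13 did not overlap between the 8 DMSO and the 8 4OHT libraries with siSF3B1, which held for 58.7% of all genes tested.

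Interleukins of the SASP rose in depleted cells, and the rise in IL6 was smaller than in control cells. IL1B, a secreted activator of the SASP, rose from 0.368 to 1.57 CPM (median 0.713) to 3588 to 4402 CPM (median 3955) (log2 fold change 12.34, SE 0.21, edgeR adjusted p = 1.9e-42). IL1A, its membrane-bound relative, was at 0.0876 to 0.247 CPM (median 0.143) with DMSO and 19.3 to 42 CPM (median 30) with 4OHT (log2 fold change 7.61, SE 0.23, edgeR adjusted p = 3.5e-32). IL6, a defining SASP cytokine, stood at 0.437 to 1.38 CPM (median 1.02) with DMSO and 26.5 to 39.6 CPM (median 31.9) with 4OHT, a 33.7-fold rise (log2 fold change 5.07, SE 0.19, edgeR adjusted p = 2.4e-28). No DMSO library reached any 4OHT library for these 3 genes. In siNT cells the IL6 median went from 1.32 to 115 CPM, and its response there was larger (log2 fold change 6.48, difference −1.41, SE 0.26, edgeR adjusted p = 2.8e-05). Both siRNAs gave a rise in IL6, of 4.51 with siSF3B1-13 and 5.70 with siSF3B1-16. The IL1B response was also smaller than in siNT cells (13.41, difference −1.07, SE 0.30, edgeR adjusted p = 0.0036), with a DMSO median of 0.713 CPM against 0.296 CPM and a 4OHT median of 3955 CPM against 3165 CPM. The IL1A response differed by 0.12 (SE 0.37, adjusted p = 0.84).

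Most listed interleukin genes rose in both depleted and control cells, whereas the IL-1 receptor IL1R1 rose in depleted cells and fell in control cells. IL1R1, the signalling receptor for IL-1α and IL-1β, was at 74.7 to 117 CPM (median 94.7) with DMSO and 177 to 226 CPM (median 198) with 4OHT (log2 fold change 1.06, SE 0.09, edgeR adjusted p = 2.3e-14), whereas it fell in siNT cells from a median of 134 to 90.2 CPM (−0.59, difference 1.66, SE 0.13, edgeR adjusted p = 3.2e-14). Levels did not overlap between the siSF3B1 groups, and the rise was 1.41 with siSF3B1-13 and 0.73 with siSF3B1-16. Over the 15 listed genes, 7 reached 10000 counts, and in the wider fit 10 were at least 2-fold higher and 2 at least 2-fold lower, against 10 and 2 in siNT cells, with a list median of 4.51 and 3.12 against 0.00 over all genes. The higher ones included IL11 (10.9 to 436 CPM in median), LIF, IL24, IL33 and IL1RL1, the IL-33 receptor. IL1RL1 went from a median of 0.0478 to 4.22 CPM, and its log2 fold change of 6.56 exceeded the 3.12 of siNT cells (edgeR adjusted p = 0.01). IL7 and IL15 were the 2 that fell. IL1RN, the natural IL-1 receptor antagonist, had 2 counts over the 8 DMSO and 63 over the 8 4OHT libraries, a ratio per library size of 33.3 (95% interval 9.21 to 275, counting error only). IL6ST and IL18 did not pass (edgeR adjusted p = 0.17 and 0.14).

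Chemokines that attract neutrophils were among the genes that rose most. CXCL8 was at 0.348 to 0.682 CPM (median 0.535) with DMSO and 2605 to 2941 CPM (median 2859.5) with 4OHT (log2 fold change 12.39, SE 0.23, edgeR adjusted p = 8.1e-41). CXCL5 was at 0.0771 to 0.448 CPM (median 0.174) with DMSO and 2860.4 to 3537 CPM (median 3238) with 4OHT (log2 fold change 13.81, SE 0.22, edgeR adjusted p = 1.4e-43). CXCL1, CXCL2, CXCL3 and CXCL6 also rose, with log2 fold changes of 10.69, 7.98, 9.95 and 8.27, beside 10.78, 8.55, 10.54 and 8.20 in siNT cells. These 6 genes were under 1 CPM in every DMSO library, and none of their responses passed the test of a difference from siNT (edgeR adjusted p from 0.055 to 0.88). Of CCL20, a ligand of CCR6, 1 count was found over the 8 DMSO libraries and 7765 over the 8 4OHT libraries (16.5 to 38.5 CPM), a ratio of 8204 with a 95% interval of 1473 to 324055. CCL3 had 0 counts over the DMSO libraries and was at least 191-fold higher with 4OHT, taking 3 counts over the group as the floor. CXCL10, induced by interferon-γ, went from 0.388 to 11.9 CPM in median, a larger response than in siNT cells (5.18 against 4.60, edgeR adjusted p of the difference 0.037, and 0.081 in the wider fit).

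CCL2 and CXCL12 stood apart from the other chemokines. CCL2, which attracts monocytes, was at 9.36 to 11.5 CPM (median 10) with DMSO and 7.53 to 11.3 CPM (median 8.82) with 4OHT, with overlapping ranges (log2 fold change −0.18, SE 0.09, edgeR adjusted p = 0.083), and it passed as lower without 4OHT siSF3B1-16 replicate 3 or 4 (−0.23 and −0.22). In siNT cells it rose from a median of 14.9 to 26.6 CPM (0.88), and the responses differed by −1.05 (SE 0.13, edgeR adjusted p = 7.2e-09). CXCL12, a chemokine made by resting fibroblasts, fell from 5.49 to 9.38 CPM (median 7.54) to 0.0924 to 0.295 CPM (median 0.177) (log2 fold change −5.35, SE 0.17, edgeR adjusted p = 2.8e-31), a smaller fall than the −7.16 with siNT (adjusted p of the difference 2.5e-05). Over all 20 listed chemokines, 11 were at least 2-fold higher and 2 at least 2-fold lower (CXCL12 and CCL13, the latter at no more than 0.0575 CPM), against 12 and 1 with siNT. The list median was 3.30 with siSF3B1 and 3.68 with siNT.

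Matrix proteases rose in depleted cells, by log2 fold changes that for MMP1 and MMP3 were near those of control cells. MMP1, interstitial collagenase, was at 156 to 191 CPM (median 166) with DMSO and 10456 to 12054 CPM (median 11337) with 4OHT (log2 fold change 6.05, SE 0.10, edgeR adjusted p = 2.6e-42). MMP3, stromelysin, was at 9.99 to 13.5 CPM (median 11.7) with DMSO and 3729 to 4930 CPM (median 4341) with 4OHT (log2 fold change 8.52, SE 0.11, edgeR adjusted p = 6e-47). Neither gene overlapped between groups, and their responses differed from those with siNT by 0.16 and −0.07 (edgeR adjusted p = 0.3 and 0.69), where their 4OHT medians were 7875 and 2925 CPM. MMP10, PLAU, PLAUR and PLAT, the last 3 of the plasminogen system, rose with log2 fold changes of 5.60, 2.96, 2.45 and 2.20. SERPINB2, an inhibitor of the urokinase PLAU, rose from 4.60 to 8.60 CPM (median 6.56) to 572 to 666 CPM (median 608), with a smaller response than in siNT cells (6.53 against 7.91, adjusted p of the difference 2.5e-11). TIMP3 and TIMP2, inhibitors of metalloproteases, fell 6.09-fold and 2.26-fold (log2 fold changes −2.61 and −1.18). ADAMTS1 fell less than with siNT (−0.97 against −2.11, adjusted p of the difference 1e-06), and its fall was −0.34 with siSF3B1-13 and −1.48 with siSF3B1-16. In the wider fit, 12 of the 19 measured proteases and inhibitors were at least 2-fold higher and 2 at least 2-fold lower, against 13 and 3 with siNT.

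Growth factors and their binding proteins showed smaller responses for several members. CSF3, which encodes G-CSF, had 3 counts over the DMSO libraries and 159 to 192 CPM with 4OHT, a ratio of 18234 (95% interval 6239 to 88417). CSF2, which encodes GM-CSF, reached 18.7 to 36.9 CPM, against a median of 58.9 CPM in 4OHT siNT. STC1, BMP2, EREG and INHBA rose with log2 fold changes of 5.65, 5.22, 4.57 and 4.35. IGFBP3, a carrier of IGF, was at 15.1 to 22.6 CPM (median 18.6) with DMSO and 12.9 to 23 CPM (median 18.1) with 4OHT, with overlapping ranges (log2 fold change −0.04, SE 0.17, edgeR adjusted p = 0.83). In siNT cells IGFBP3 rose from a median of 14.7 to 47.1 CPM (1.68), so that the responses differed by −1.72 (edgeR adjusted p = 1.4e-07). ANGPTL4, VEGFC, HBEGF and TNFRSF11B also had smaller responses, at 3.13 against 4.85, 0.54 against 1.64, 1.63 against 2.93 and 0.41 against 1.28. For ANGPTL4 the medians with 4OHT were near, at 119 and 106 CPM, while those with DMSO were 12.6 and 3.85 CPM. CSF1, IGFBP6 and FGF7 fell in depleted cells (−2.01, −2.06 and −1.86). Over all 27 listed genes, 13 were at least 2-fold higher and 4 at least 2-fold lower, against 16 and 3 with siNT. Tests of the difference called a more negative response for 9 and a more positive one for 3 genes, and the list median was 0.75 against 1.46.

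Transcription regulators of the SASP responded in both directions. TNFAIP3, a feedback inhibitor of NF-κB, was at 4.57 to 6.59 CPM (median 5.56) with DMSO and 51.4 to 71.7 CPM (median 59) with 4OHT (log2 fold change 3.43, SE 0.10, edgeR adjusted p = 2.2e-32), a larger response than with siNT (2.80, adjusted p of the difference 1.5e-04). NFKBIZ, an NF-κB cofactor needed for part of the SASP, rose by a log2 fold change of 2.42, and RELB, NFKBIA and NFKB2 by 2.26, 1.88 and 1.58. CEBPB, an activator of the SASP, went from 227 to 440 CPM in median (log2 fold change 0.94, SE 0.09, edgeR adjusted p = 7.3e-13). CEBPD fell from 53.8 to 104 CPM (median 80.5) to 15.6 to 19 CPM (median 18.2), more than with siNT (−2.16 against −0.78, edgeR adjusted p of the difference 2.6e-08). FOSL1, an AP-1 subunit, was at 82.7 to 150.1 CPM (median 114) with DMSO and 106 to 114 CPM (median 111) with 4OHT (log2 fold change −0.05, SE 0.10, edgeR adjusted p = 0.64), and its change was −0.37 with siSF3B1-13 and 0.33 with siSF3B1-16. The AP-1 genes FOS and FOSB, both under the count filter, rose by 2.17 and 3.56, against 0.28 and 2.11 with siNT (adjusted p of the differences 2.2e-10 and 2.7e-10). Over all 18 regulators, 9 were at least 2-fold higher and 1 (CEBPD) at least 2-fold lower, against 7 and 1 with siNT.

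Genes induced by ERK signalling downstream of RAS rose in depleted cells. DUSP6, which dephosphorylates ERK, was at 83.9 to 96.4 CPM (median 93.5) with DMSO and 746 to 797 CPM (median 778) with 4OHT (log2 fold change 3.07, SE 0.06, edgeR adjusted p = 6.4e-41), against 3.23 with siNT. DUSP4, IER3, SPRY4 and SPRY2, feedback and immediate-early genes of the pathway, rose with log2 fold changes of 4.20, 3.99, 2.75 and 2.21. All 17 listed genes passed the filter, of which 12 were at least 2-fold higher and 1 (EGR1) at least 2-fold lower, against 11 and 0 in siNT cells. The list median was 1.43 with siSF3B1 and 1.51 with siNT. DUSP1 rose more than with siNT (1.98 against 0.77, edgeR adjusted p of the difference 9.7e-08). EPHA2, a receptor kinase, was at 160.2 to 212 CPM (median 182) with DMSO and 165 to 205 CPM (median 187) with 4OHT (log2 fold change 0.02, SE 0.07, edgeR adjusted p = 0.84), and changed by −0.30 with siSF3B1-13 and 0.31 with siSF3B1-16, against 0.91 with siNT.

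Mitotic genes were lower with 4OHT than with DMSO in depleted cells too, by a smaller fold and beside lower levels with DMSO. MKI67, a marker of cycling cells, was at 1.81 to 7.20 CPM (median 4.05) with DMSO and 0.532 to 1.21 CPM (median 0.886) with 4OHT (log2 fold change −2.29, SE 0.24, edgeR adjusted p = 1.2e-11), against medians of 16.8 and 1.38 CPM with siNT (log2 fold change −3.58, difference 1.29, SE 0.34, edgeR adjusted p = 0.0018). CCNA2, cyclin A2 of S and G2 phase, was at 2.36 to 4.72 CPM (median 3.43) with DMSO and 0.981 to 2.22 CPM (median 1.58) with 4OHT (log2 fold change −1.18, SE 0.13, edgeR adjusted p = 3.1e-11), and its fall was also smaller than with siNT (−2.07, adjusted p of the difference 5.9e-05). CCNB1, the mitotic cyclin B1, was at 7.01 to 16.5 CPM (median 11.4) with DMSO and 7.67 to 11.1 CPM (median 9.38) with 4OHT (log2 fold change −0.34, SE 0.13, edgeR adjusted p = 0.018). Its ranges overlapped, the call was lost without DMSO siSF3B1-16 replicate 1, 3 or 4 (−0.26, −0.28 and −0.26), and its change was 0.09 with siSF3B1-13 and −0.64 with siSF3B1-16. The largest falls were in FOXM1, a transcription factor for mitotic genes (−2.37), MKI67, CCNB2 (−2.26) and KIF20A, a mitotic kinesin (−2.21 against −4.05 with siNT). CENPF, a kinetochore protein, was at 8.24 to 16.9 CPM (median 12) with DMSO and 12.2 to 15.2 CPM (median 13.6) with 4OHT (log2 fold change 0.16, SE 0.16, edgeR adjusted p = 0.36), whereas it fell by 2.11 on the log2 scale with siNT (adjusted p of the difference 5.2e-11). AURKA and ECT2 rose in depleted cells (0.35 and 0.54). Both also rose with siNT, in mean from 13.4 to 18.8 CPM and from 26.8 to 46.4 CPM.

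The whole list of 35 mitotic genes gave the same picture. In the wider fit, 20 were at least 2-fold lower in siSF3B1 cells and 31 in siNT cells, with list medians of −1.27 and −2.15. The response differed for 21 genes, each time in the positive direction. In the mean over libraries, 35 of the 35 genes were lower in DMSO siSF3B1 than in DMSO siNT, and 31 were lower in 4OHT siSF3B1 than in 4OHT siNT. The median over the list was 11 CPM with DMSO and 1.83 CPM with 4OHT in siNT cells, beside 3.26 and 1.15 CPM in siSF3B1 cells. These comparisons share libraries with the responses and are given side by side.

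**Figure D3:**
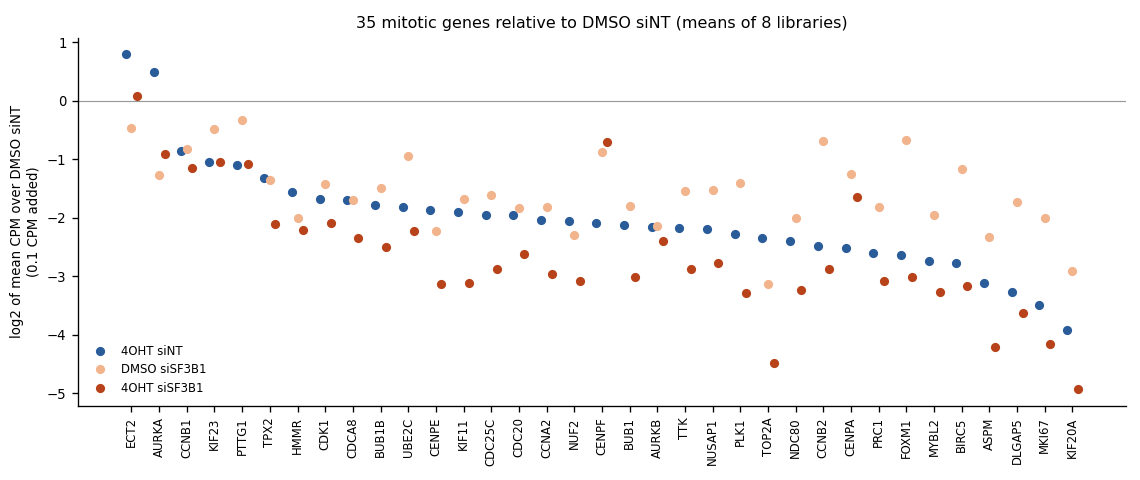
The log2 ratio of mean CPM to that in DMSO siNT (y axis, 0.1 CPM added) for 35 mitotic genes (x axis) in the 3 other groups, as means of 8 libraries each. All genes lie below 0 in DMSO siSF3B1, with a median of −1.62, and the medians with 4OHT are −2.08 for siNT and −2.87 for siSF3B1.

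DNA replication genes changed less and in both directions. TK1, thymidine kinase, fell from 8.63 to 13.1 CPM (median 10.6) to 0.801 to 1.70 CPM (median 0.977) (log2 fold change −3.33, SE 0.24, edgeR adjusted p = 3.4e-17). TYMS, thymidylate synthase, fell from 35.1 to 41.6 CPM (median 39.5) to 6.81 to 8.44 CPM (median 7.94), more than in siNT cells (−2.31 against −1.56, edgeR adjusted p of the difference 5e-09). MCM6, of the replicative helicase, fell by 1.95 on the log2 scale, whereas MCM4 rose by 0.24 and MCM3 and MCM7 did not pass (edgeR adjusted p = 0.2 and 0.97). ORC6, of the origin recognition complex, rose from 2.96 to 7.54 CPM in median (1.35), and FEN1, the flap endonuclease, by 0.89. Over all 36 genes, 5 were at least 2-fold lower and 3 (CDC45, ORC6 and E2F1) at least 2-fold higher, against 10 and 2 with siNT, and the list median was −0.18 against −0.50. In that wider fit 12.1% of all genes were at least 2-fold lower and 10.5% higher with siSF3B1, against 14.6% and 10.8% with siNT. The list counts with siSF3B1 were thus near the shares over all genes. GINS4 fell less than with siNT (−0.40 against −1.11, adjusted p of the difference 2.8e-08).

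LMNB1 and HMGB2 fell less in depleted than in control cells. LMNB1, which encodes lamin B1 of the nuclear envelope, was at 5.49 to 11 CPM (median 7.41) with DMSO and 2.45 to 4.20 CPM (median 3.47) with 4OHT (log2 fold change −1.21, SE 0.13, edgeR adjusted p = 2.7e-11), against medians of 18.3 and 3.63 CPM with siNT (−2.47, difference 1.26, SE 0.18, edgeR adjusted p = 3.5e-07). The groups with siSF3B1 did not overlap, and the fall was −0.58 with siSF3B1-13 and −1.76 with siSF3B1-16. HMGB2, a chromatin protein lost from senescent cells, fell from 15.1 to 20.6 CPM (median 18.6) to 4.95 to 7.51 CPM (median 5.81), also by less than with siNT (−1.62 against −3.17, adjusted p of the difference 2.3e-12). HMGA2, a component of senescence-associated heterochromatin, rose from a median of 186 to 344 CPM, by less than with siNT (0.80 against 1.96, 0.017). Of the 12 listed genes, 4 rose (HMGA2, SUV39H1, HMGA1 and LMNB2) and 6 fell, with 0 at least 2-fold higher and 3 at least 2-fold lower, against 1 and 2 with siNT. The test of the difference called 4 with a more positive and 1 with a more negative response, and 7 did not pass it.

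Matrix and contractile genes fell in depleted cells. DCN, which encodes decorin, fell from 1397 to 1563 CPM (median 1525) to 56.3 to 64.1 CPM (median 60.4) (log2 fold change −4.64, SE 0.06, edgeR adjusted p = 1.4e-47). TAGLN, a marker of contractile myofibroblasts, fell from 383 to 452 CPM (median 426) to 28.7 to 39.4 CPM (median 35.1) (log2 fold change −3.62, SE 0.12, edgeR adjusted p = 4.4e-30). COL1A1 and COL1A2, the chains of type I collagen, fell by 2.08 and 2.77 on the log2 scale. No library of one treatment reached those of the other for DCN or TAGLN. Over all 20 genes, 15 were at least 2-fold lower and 0 at least 2-fold higher (COL6A2 rose by 0.36), against 16 and 0 with siNT, and the list medians were −1.73 and −1.78. COL3A1 and LUM fell less than with siNT (−2.19 against −3.30 and −1.62 against −2.37, edgeR adjusted p of the differences 4.5e-14 and 3.3e-05).

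In the BCL2 family of apoptosis regulators, BCL2 fell while several other members rose. BCL2, which blocks apoptosis, fell from 10.7 to 15.7 CPM (median 13.2) to 0.925 to 1.65 CPM (median 1.21) (log2 fold change −3.41, SE 0.12, edgeR adjusted p = 8.3e-30). BCL2A1, another blocker and an NF-κB target, had 2 counts over the DMSO libraries and 8042 over the 4OHT libraries (21.7 to 34.8 CPM), a ratio of 4249 (95% interval 1176 to 35081), against a 4OHT median of 12.6 CPM with siNT. MCL1, BCL2L1 and BCL2L2 rose (1.47, 0.33 and 0.61). Among the pro-apoptotic members, BMF rose from 32.8 to 119 CPM in median, more than with siNT (1.88 against 0.97, edgeR adjusted p of the difference 2.9e-06), and PMAIP1 and BID rose (1.43 and 1.00). BOK and BCL2L11 fell (−1.28 and −0.71), the latter by less than with siNT (−2.11, 3e-07). Over all 16 genes, 5 were at least 2-fold higher and 3 at least 2-fold lower, against 7 and 3 with siNT.

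Among lysosomal, interferon-stimulated and SF3 genes, GLA, NEU1 and several interferon-stimulated genes changed by 2-fold or more, and no SF3 subunit did. GLA, a lysosomal galactosidase, rose from 16.4 to 57.2 CPM in median (1.75) and NEU1, a sialidase, by 1.07, as the 2 lysosomal genes of 12 at least 2-fold higher, with 0 at least 2-fold lower, against 2 and 1 with siNT. GLB1, which encodes the senescence-associated β-galactosidase, rose by 0.26 (98.8 to 119 CPM, edgeR adjusted p = 5.6e-05). IFIT1, an interferon-stimulated gene, fell from 12.3 to 24 CPM (median 15.9) to 1.76 to 5.53 CPM (median 3.26) (log2 fold change −2.32, SE 0.17, edgeR adjusted p = 7.1e-17), by 1.54 with siSF3B1-13 and 3.23 with siSF3B1-16 on the log2 scale. Of 18 interferon genes, 4 (IFI44L, IFIT1, MX2 and STAT2) were at least 2-fold lower and 1 (IFI27) at least 2-fold higher, against 6 and 1 with siNT. Among the 9 measured subunits of SF3a and SF3b, 4 fell (SF3A2, SF3A3, SF3B3 and SF3B1) and 1 rose (SF3A1), none by 2-fold. SF3A3 and SF3B3 fell more than with siNT (−0.43 against −0.08 and −0.32 against −0.09, edgeR adjusted p of the differences 2.6e-06 and 1.9e-04).

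Outside the lists, the largest falls without overlap were in HTR2B, SLC7A14, TOX, WNT2 and CLDN11. HTR2B, a serotonin receptor, had 2685 counts over the DMSO libraries (7.34 to 9.81 CPM) and 1 over the 4OHT libraries, a ratio of 2541 (95% interval 456 to 100373). CLDN11, a tight-junction claudin, fell from 345 to 598 CPM (median 481) to 4.25 to 8.29 CPM (median 5.79), more than with siNT (−6.30 against −4.48, edgeR adjusted p of the difference 6.6e-12). SLC7A14 also fell more (−8.47 against −6.66), while TOX and WNT2 fell less (−7.32 against −8.90 and −6.57 against −8.63). The call of the WNT2 difference was lost under 3 of the alternative settings.

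The responses that differed most from control cells were of 6 genes, BCL2A1 among them. BCL2A1 had hardly any counts in DMSO siSF3B1 cells, and the call of its difference was lost under 2 of the alternative settings. PTGES, which makes prostaglandin E2, rose from 3.49 to 4.80 CPM (median 4.46) to 14.4 to 30.8 CPM (median 21.3) in depleted cells, whereas it fell with siNT from a median of 8.32 to 5.36 CPM (2.33 against −0.61, difference 2.94, SE 0.22, edgeR adjusted p = 4.9e-15). KIAA1199, a hyaluronan-degrading factor now named CEMIP, was at 23.6 to 50.7 CPM (median 36.7) with DMSO and 31 to 43.9 CPM (median 35.5) with 4OHT (edgeR adjusted p = 0.98), whereas its median fell from 91.8 to 12 CPM with siNT (difference 2.91, SE 0.18, edgeR adjusted p = 1.6e-17). PKNOX2, a homeobox factor, fell from 4.19 to 5.41 CPM (median 4.64) to 0.103 to 0.370 CPM (median 0.171) (−4.43 against −1.06, adjusted p of the difference 3.2e-23). BIRC3, an NF-κB target and inhibitor of apoptosis, rose from a median of 1.60 to 5.18 CPM, against 1.79 to 31.5 CPM with siNT (1.48 against 4.09, 2.6e-12). KLHL29 fell in depleted cells and rose with siNT (−1.28 against 0.90, 1.1e-20). In cells depleted of RBM39, a different splicing factor, the responses of PTGES, KIAA1199, PKNOX2, BIRC3 and KLHL29 were −0.12, −1.25, −3.57, 3.02 and −0.60, each different from that with siSF3B1 (edgeR adjusted p from 2.6e-12 to 1.1e-04).

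Splicing also differed between 4OHT and DMSO in depleted cells, mostly as lower exon inclusion. Inclusion is given as the per cent spliced-in index (PSI), the share of informative reads that include an exon or retain an intron. Averaged over 7673 cassette exons, PSI was 79.3% ± 0.556 with DMSO and 78.2% ± 0.668 with 4OHT (SD, n = 8), a difference of −1.07 points (two-sided exact permutation test, p = 0.00699, adjusted p = 0.0140 over 4 event classes), which no longer passed without replicate 1, 2 or 3. The groups overlapped as a whole but not within either siRNA. With siSF3B1-13 the means were 78.8% and 77.6% (−1.19 points), and with siSF3B1-16 79.8% and 78.9% (−0.951 points), each at p = 0.0286, the smallest an exact permutation of 4 against 4 libraries can give (adjusted p = 0.0571). With siNT the difference was −0.192 points, from 83.7% to 83.5% (exact permutation p = 0.000155, the smallest for 8 against 8). Mean retention over 5248 introns rose from 3.37% ± 0.272 to 3.92% ± 0.119 (SD, n = 8), by 0.547 points (exact permutation p = 0.00109, adjusted p = 0.00435, which no longer passed without replicate 1), against −0.161 points with siNT (p = 0.114, exact permutation). With siSF3B1-13 alone intron retention differed by 0.543 points and did not pass (exact permutation p = 0.0857), with 3.20% to 4.01% and 3.87% to 4.14% in ranges that overlapped, and with siSF3B1-16 alone it differed by 0.552 points (exact permutation p = 0.0286, adjusted p = 0.0571). Alternative 3′ and 5′ splice sites differed by −0.153 and −0.106 points (exact permutation p = 0.238 and 0.393). SF3B1 mRNA was itself lower in the 4OHT group, and its part in these differences was not tested.

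**Figure D4:**
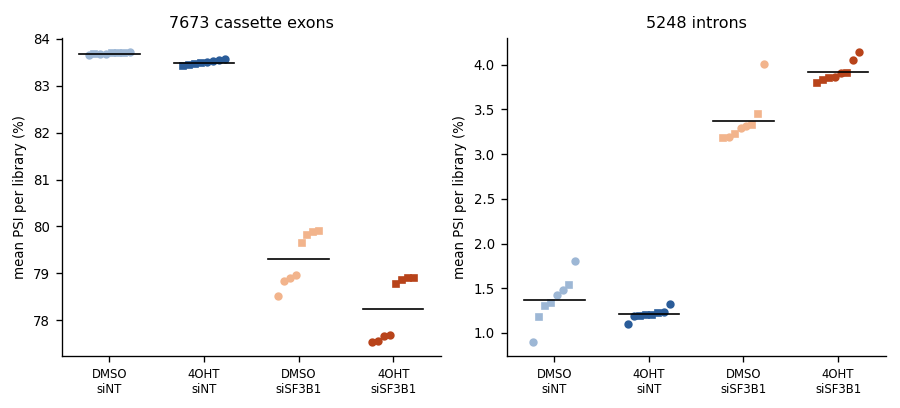
Mean PSI per library (y axis, with a range of its own in each panel that does not start at 0) over cassette exons and over introns, with circles for siNT1 and siSF3B1-13, squares for siNT2 and siSF3B1-16 and a bar at the mean of 8. Within each SF3B1 siRNA, exon inclusion is lower in 4OHT libraries than in DMSO libraries.

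Among single exons, 292 had lower inclusion (3.81%) and 55 higher inclusion (0.717%) with 4OHT in siSF3B1 cells, at an adjusted p under 0.05 in limma and a difference of at least 5 points. In siNT cells 86 were lower (1.12%) and 37 higher (0.482%). The 63 exons called in both changed in the same direction, and made up 18.2% of the calls with siSF3B1 and 51.2% of those with siNT. Ranges did not overlap for 89 of the 347 exons called with siSF3B1, and for 1.42% of all exons tested. Of the 292 exons that fell, 186 (63.7%) had at least 95% inclusion in both siNT groups, against 76.6% of all exons tested. For these 186 the median PSI was 99.9% and 99.7% with siNT (DMSO and 4OHT), beside 94.5% and 86.4% with siSF3B1. The 186 were chosen by their high siNT levels and their fall with siSF3B1, so the contrast between these medians follows from that choice. The exons that fell had a median length of 96 bases against 105 for all, a length divisible by 3 in 54.8% against 42.3%, and a median upstream intron of 1217 bases against 1727. For the 55 exons that rose these values were 81 bases, 47.3% and 1214 bases. Shorter exons and shorter upstream introns were thus found among called exons of either direction. With filters over the compared libraries only, 151 exons had lower and 25 higher inclusion with 4OHT in siSF3B1 cells.

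Among the largest exon changes in depleted cells were switches also seen in control cells. The exons named below were chosen mainly by their change in depleted cells. They therefore do not show how many switches of control cells remained. In TPM1, which encodes α-tropomyosin of actin filaments, a pair of mutually exclusive exons changed places. The falling exon (HsaEX0066684) was at 40.9% to 55.9% (median 45.9%) with DMSO and 7.53% to 12% (median 9.46%) with 4OHT (−38.1 points, limma adjusted p = 1.9e-18). The rising exon (HsaEX0066683) was at 49.9% to 64.1% (median 55.9%) with DMSO and 87.5% to 96.4% (median 90.4%) with 4OHT (34.5 points, adjusted p = 7.6e-16). No library overlapped, on 82 to 443 and 168 to 485 reads per library. With siNT the exons changed by −47.4 and 45.6 points, with other levels in DMSO cells, and the test of the difference on the logit scale did not pass (adjusted p = 0.97 and 1). Both exons have 76 bases, of which 43 are identical position by position (56.6%). They are shown because one replaced the other, in GRCh37 coordinates on the plus strand at chr15:63353912-63353987 (falling) and chr15:63353397-63353472 (rising), with 40 intron bases before and 10 after in lower case and the exon in capitals, 5′ to 3′.
TPM1 falling exon: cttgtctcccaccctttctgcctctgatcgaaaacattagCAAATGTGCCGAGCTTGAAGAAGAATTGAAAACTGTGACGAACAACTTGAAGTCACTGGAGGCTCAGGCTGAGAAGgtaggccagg
TPM1 rising exon: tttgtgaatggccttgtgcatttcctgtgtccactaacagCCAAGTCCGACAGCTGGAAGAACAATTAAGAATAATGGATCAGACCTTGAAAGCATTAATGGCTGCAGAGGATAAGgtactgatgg
Both are annotated as coding, and both are preceded by AG and followed by GT.

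In COL5A1, which encodes a chain of type V collagen, an exon near the 3′ end had lower inclusion with 4OHT. The exon (HsaEX0016613, 69 bases) was at 50% to 59.9% (median 54.7%) with DMSO and 31.9% to 44.8% (median 36%) with 4OHT (−17.8 points, limma adjusted p = 2.7e-05). The ranges did not overlap. With siNT the change was −13.1 points, and DMSO siSF3B1 already differed from DMSO siNT by −18.4 points.

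H2AFY, which encodes the histone variant macroH2A1, switched between alternative exons of 87 and 100 bases. The longer exon (HsaEX0029172) was at 21% to 40.4% (median 27.2%) with DMSO and 47.1% to 65.8% (median 60.8%) with 4OHT (31.4 points, limma adjusted p = 5e-10) and the shorter (HsaEX0029173) at 48.6% to 73.6% (median 61.3%) with DMSO and 21.8% to 37.1% (median 28%) with 4OHT (−31.1 points, adjusted p = 3.4e-09), with no overlap in either. With siNT they changed by 23.6 and −29 points, and the test of the difference did not pass (limma adjusted p = 0.67 and 0.91). The rising exon is shown on the minus strand of GRCh37 at chr5:134688636-134688735, where it is coding.
H2AFY rising exon: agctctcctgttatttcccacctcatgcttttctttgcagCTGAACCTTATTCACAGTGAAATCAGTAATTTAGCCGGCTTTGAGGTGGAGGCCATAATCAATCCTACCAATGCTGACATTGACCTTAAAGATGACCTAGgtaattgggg
Other large changes without overlap were in FAT1, an atypical cadherin (69.3% to 23.2% in median, −44.2 points), MARK3, a polarity kinase (82.2% to 41.7%, −40.2 points), and RAI14, an actin-associated protein (24.4% to 54.1%, 29.5 points). The FAT1 and MARK3 exons have 36 and 27 bases. The siNT changes were −34.3, −14.4 and 29.8 points, and the tests of the difference did not pass (limma adjusted p = 0.59, 0.78 and 1).

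**Figure D5:**
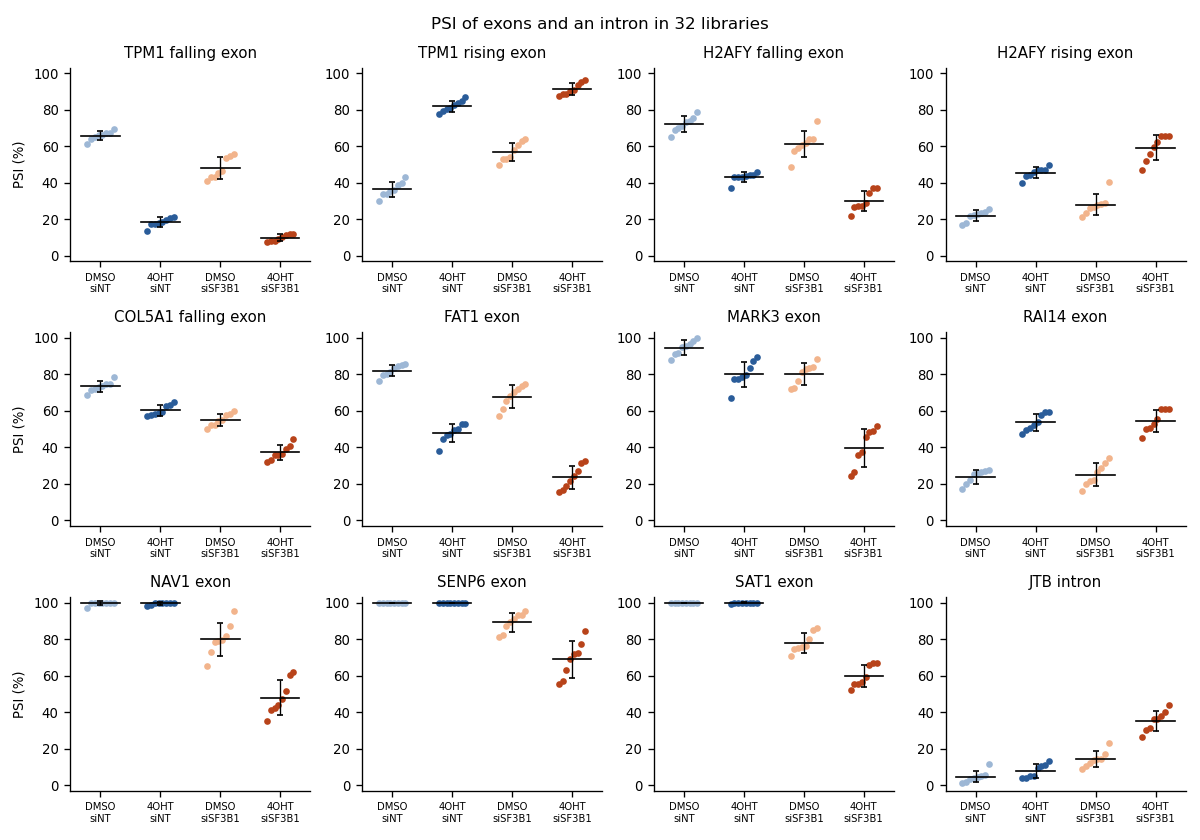
PSI of 11 exons and 1 intron (y axis, per cent) in each of 32 libraries by group, with a point per library and the mean ± SD of 8. The TPM1 and H2AFY pairs move in opposite directions with 4OHT for both siNT and siSF3B1, while the NAV1, SENP6 and SAT1 exons are near 100% in siNT and fall with 4OHT in siSF3B1.

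Other exons responded differently in depleted and in control cells. The test of the difference used the same standard error for both responses of an exon, although spread could differ. For the SENP6 exon below, the SD was 0 in both siNT groups, against 5.19 (DMSO) and 9.98 points (4OHT) with siSF3B1. Adjusted p may thus be too small for exons near 100% in siNT cells. With filters over the compared libraries only, the test called 17 exons with a more negative and 3 with a more positive response. With filters over all 48 libraries, it called 43 exons with a more negative (0.56%) and 4 with a more positive response (0.0521%). NAV1, which encodes a microtubule-binding neuron navigator, had the largest such fall (HsaEX0041745), at 65.1% to 95.7% (median 79.4%) with DMSO and 35% to 62.3% (median 45.7%) with 4OHT, against medians of 100% in both siNT groups (difference in response −32 points, limma adjusted p = 0.013, on 31 to 98 reads). In SENP6, a SUMO protease, an exon (HsaEX6048237) was at 81.4% to 95.5% (median 90.1%) with DMSO and 55.4% to 84.6% (median 70.5%) with 4OHT, with ranges that overlapped (−20.3 points, adjusted p = 0.0011). In SAT1, which acetylates polyamines, an exon (HsaEX6051092) was at 70.9% to 86.2% (median 76%) with DMSO and 52.4% to 67.2% (median 58%) with 4OHT (−18 points, adjusted p = 0.012). NAV1 and SAT1 did not overlap between the groups. The exons have 42, 69 and 84 bases, each divisible by 3, and are shown as examples of exons skipped in depleted cells, on the plus strand of GRCh37 at chr1:201754438-201754479, chr6:76423229-76423297 and chrX:23801917-23802000, with introns in lower case and the exon in capitals. They are coding in 5 of 7, 2 of 3 and 2 of 2 annotated transcripts that hold them.
NAV1 exon: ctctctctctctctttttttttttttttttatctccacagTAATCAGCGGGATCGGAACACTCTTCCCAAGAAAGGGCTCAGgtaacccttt
SENP6 exon: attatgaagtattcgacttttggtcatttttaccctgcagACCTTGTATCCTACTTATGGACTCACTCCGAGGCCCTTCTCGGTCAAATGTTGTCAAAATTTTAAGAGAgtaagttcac
SAT1 exon: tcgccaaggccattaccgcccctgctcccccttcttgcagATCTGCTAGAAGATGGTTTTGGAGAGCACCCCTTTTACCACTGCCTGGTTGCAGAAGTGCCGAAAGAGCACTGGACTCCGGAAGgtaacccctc

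Exons of further named genes shared this pattern. In C13orf15, now RGCC, 82.7% fell to 68% in median (−20.7 points), in XRN2, the nuclear exonuclease that ends transcription, 95.3% to 79.3% (−14.5 points), and in HSPA5, the chaperone BiP, 89.8% to 79.6% (−9.48 points). UACA, DST, SCAF1 and TAX1BP1 fell by 22.8, 18, 16.2 and 14.4 points. The ranges with DMSO and 4OHT overlapped for C13orf15, DST and SCAF1. The differences of UACA and DST did not pass with siSF3B1-16 alone (limma adjusted p = 0.17 and 0.06). That of TAX1BP1 did not pass with siSF3B1-13 alone (limma adjusted p = 0.067). Of the 43 exons with a more negative response, 30 (69.8%) had at least 95% inclusion in both siNT groups, against 76.6% of all exons tested, and 35 were called lower with 4OHT in siSF3B1 cells. For 5 of the others, inclusion rose by the test in siNT cells, as in EIF4A2, a translation factor (14.1 points with siNT and −0.434 with siSF3B1, limma adjusted p of the difference 0.0099), and ZNF207, a spindle protein (13.6 and −4.79 points, 0.014). Another was an exon of HIF1A, the hypoxia-inducible factor, with medians of 83.6% and 91% with siNT and 54.7% and 42.1% with siSF3B1 (difference in response −17.5 points, limma adjusted p = 0.043).

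The 4 exons with a more positive response were in WSB1, OBFC2A, FZR1 and RNF10. The WSB1 exon (HsaEX0071632) fell from a median of 54.3% to 8.85% with 4OHT in siNT cells, but was already at 0.695% in DMSO siSF3B1 and at 0% in 4OHT siSF3B1 (difference 43.3 points, limma adjusted p = 0.0011). The OBFC2A exon (HsaEX0044510) likewise went from 12.2% to 0.690% with siNT and from 1.80% to 0.580% with siSF3B1. Both exons were thus nearly absent from depleted cells with either treatment. FZR1 and RNF10 differed by 7.33 and 7.33 points (adjusted p = 0.035 and 0.042), calls lost under 10 and 14 of the alternative settings.

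Intron retention rose more often than it fell. Of 5248 introns, 33 rose (0.629%) and 3 fell (0.0572%). When filters covered the compared libraries only, 3 rose and 0 fell. The intron of JTB (HsaINT0083881, 156 bases) was at 9.10% to 23% (median 14%) with DMSO and 26.5% to 43.7% (median 36.2%) with 4OHT, with no overlap (20.9 points, limma adjusted p = 5.6e-04), against medians of 4.12% and 7.37% with siNT. Introns of FKBP10, a collagen prolyl isomerase, and AGRN, agrin of the basement membrane, rose by 13.1 and 10.3 points, beside 9.02 and 5.08 with siNT. The introns that fell were in MARS, methionyl-tRNA synthetase (29% to 16.9% in median, −12.1 points), SFRS18 (−14.9 points) and CNDP2 (−6.54 points, a call lost under 13 of the alternative settings, with −14.2 points with siSF3B1-13 and a turned direction with siSF3B1-16, 1.08 points). Ranges did not overlap for 7 of the 36 introns called, and for 0.305% of all introns. The test of the difference called 1 intron (0.0191%), in ZNF266 (HsaINT0186636), at 0% to 8.57% (median 3.28%) with DMSO and 4.17% to 19.2% (median 11.8%) with 4OHT (9.25 points, limma adjusted p = 0.0079). The CHD4 intron named in the study's methods (HsaINT0034548) did not meet the balance filter. In a fit without that filter it was at 36.7% to 59.4% (median 41.5%) with DMSO and 32.3% to 55.1% (median 49.6%) with 4OHT (1.40 points, limma adjusted p = 0.92), against 3.75% and 6.38% with siNT. The SUPT5H exon named there (HsaEX0062941) was under the coverage minimum and was not tested.

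Few alternative splice sites were called. Of 497 alternative 3′ splice sites, 1 was called, in the splicing factor SF1, which was 5.12 points lower with 4OHT (limma adjusted p = 0.046, lost under 17 alternative settings), and 54 had an unadjusted p under 0.05. Of 341 alternative 5′ splice sites, 0 were called by limma, with 31 at an unadjusted p under 0.05.

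Events in the listed genes touched matrix, protease and cell-cycle transcripts. In FN1, fibronectin, an exon of 273 bases was at 47.3% to 54.1% (median 50.4%) with DMSO and 30.9% to 43.5% (median 40.2%) with 4OHT (−12.6 points, limma adjusted p = 4.3e-04), beside −13.4 points with siNT. An exon of POSTN, periostin, fell by 11.1 points and one of COL6A2 by 7.86 points, beside −6.79 and −7.19 with siNT. In CCND1, cyclin D1, an exon went from 90% to 80.7% in median and in GADD45A, a growth-arrest gene, from 88% to 77.1%, where siNT changes were −0.166 and −1.16 points. Exons of PLAU, SPRED1, COL1A1 and PDGFRB also fell, by 7.16, 6.29, 5.07 and 6.19 points, and an intron of STAT2 rose by 5.14 points. With 4OHT the STAT2 intron ranged from 0% to 25.7% (median 2.985%) on 19 to 44 reads, and the ranges overlapped. Its change was 8.90 points with siSF3B1-13 and 1.39 points with siSF3B1-16, where it did not pass (limma adjusted p = 0.28). The SPRED1 change was −12.8 points with siSF3B1-13 and 0.265 with siSF3B1-16, where its direction turned (limma adjusted p = 0.97). Among these the test of the difference was passed by COL1A1 alone (−5.22 points, limma adjusted p = 0.048). The COL1A1 ranges with DMSO and 4OHT overlapped in siSF3B1 cells. Its difference was −7.74 points with siSF3B1-13 and −2.70 points with siSF3B1-16, where it did not pass (limma adjusted p = 0.076). Of the secreted interleukins and chemokines listed, none had a called event in siSF3B1 cells. An event entered the test only with enough reads in all 48 libraries, and several of these genes had hardly any with DMSO. The lack of calls therefore does not speak to their splicing.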

How the data were processed

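Libraries were grouped by treatment and siRNA target from their labels. For 4 of the 4OHT siNT libraries the treatment label names siNT1 whereas title and library name give siNT2, which was used. Per gene, the authors deposited read counts from vast-tools, which were tested here, and cRPKM (mappability-corrected RPKM), which was not used. Their deposited TMM-normalised CPM table, a signal scaled by effective library size, served as an alternative. Each splicing event has a deposited PSI in percent and a quality field made by the authors' pipeline, with the reads behind it, a coverage class and, in introns, the p-value of a read balance test. Genes with at least 10000 counts over 48 libraries were fitted with edgeR 4.0.16 (quasi-likelihood, TMM, 6 group means, R 4.3.3). Events entered if they scored VLOW or better in all 48 libraries and their PSI ranged over 5 or more points, and introns if the balance p was never under 0.05, and were fitted with limma 3.58.1 on the logit of 0.01 plus 0.98 of the PSI fraction. Adjusted p is Benjamini-Hochberg over all genes or all events of a class. Alternatives included limma-voom, DESeq2 1.42.0, other filters, single siRNAs, a replicate block and left-out libraries. The procedures were tested on simulated data.

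Members and gene lists were chosen with earlier results of these data known. Genes named were SF3B1, a panel of 14 genes, the largest changes and differences in response in each list and over all genes, and members of small counts; other members were named after their values were seen, as were neighbouring exons. The deposited event positions appear to be those of GRCh38, under the name hg19, so exons printed were matched to GENCODE v44 on GRCh37 by gene, exon length and intron lengths. Some results are not reported here. The study's methods give a first-strand setting for a Tophat alignment, whereas for the vast-tools counts used here no strand setting is given in the sources used here. Each library pair of a siRNA and treatment differed by more than sampling noise. Intervals and floors cover counting error only.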

Additional observations from a re-analysis of the deposited data

Results flagged for a closer look

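In 6 of the 76 sets of 4 libraries with the same siRNA and treatment that were examined, 1 library lay far from the other 3, which chance gives in about 1 set in 20. With siSF3B1-16 and 4OHT, SF3B1 was highest at 30.7 CPM in 1 library, CXCL8 lowest at 2700 CPM and LMNB1 lowest at 2.45 CPM. With siSF3B1-16 and DMSO, CDKN2B was highest at 36.1 CPM. With siSF3B1-13 and DMSO, DUSP6 was lowest at 91 CPM and mean intron retention highest at 4.01%. None of these libraries moved the groups of CDKN2B, CXCL8, LMNB1 or DUSP6 into overlap. For SF3B1 and for mean intron retention the library named was the one that reached into the range of the other treatment, since the other 4OHT libraries had at most 29.1 CPM of SF3B1 and the other DMSO libraries at most 3.45% retention.

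For 8 genes of the panel the 4OHT response differed between siSF3B1 and siNT cells in edgeR's test of the difference. It was more positive in depleted cells for LMNB1 (1.26 on the log2 scale), MKI67 (1.29), CCNA2 (0.89), CCNB1 (0.52) and CDKN2B (0.29), and more negative for CDKN1A (−0.51), IL1B (−1.07) and IL6 (−1.41). The calls for CCNB1 and CDKN2B were lost under 8 and 7 of the alternative settings. In limma's test on splicing, the largest differences were in exons of WSB1 (43.3 points) and NAV1 (−32 points) and in the intron of ZNF266 (9.25 points).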

How the results depend on the processing

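For the response in siSF3B1 cells 7567 genes were called, with 7582 by limma-voom, 7636 by DESeq2, 6588 with siSF3B1-16 alone, 10829 with a minimum of 1 count in total, and 6920 to 7728 without 1 replicate number. Counts moved by over 1.5 times with a minimum of 2-fold (1700 genes for the response and 223 for the difference from siNT) and with siNT1 alone as control (2352 for the difference). Leaving out a replicate number gave 1651 (replicate 2) to 3169 genes for the difference from siRBM39 cells.

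Called exons for the response (347) numbered 112 with PSI from 1 to 99, 225 with a stricter coverage score, 176 with filters over the compared libraries only, 767 with no minimum difference and 149 with 10 points. Their count for the difference from siNT (47) became 17, 20 (filters over the compared libraries only), 79 (no minimum) and 26 (10 points), 174 with siSF3B1-13 alone and 84 with siSF3B1-16 alone, and 24 to 67 when a library or a replicate number was left out (24 without replicate 2). Introns for the response (36) numbered 9 with PSI from 1 to 99, 22 with stricter coverage, 3 with filters over the compared libraries only, 145 without the balance filter, 18 with siSF3B1-16 alone, 152 with no minimum and 11 with 10 points. Introns for the difference (1) numbered 3 with PSI from 1 to 99, 0 with filters over the compared libraries only and with 10 points, 16 and 4 with siSF3B1-13 and siSF3B1-16 alone, 2 with no minimum, 5 with adjustment over the 4 classes together and 0 to 4 when a library or number was left out (0 without replicate 1). The count of 1 alternative 3′ splice site became 0 with PSI from 1 to 99, with filters over the compared libraries only, with the replicate block and with 10 points, 2 with 1 group per siRNA, 2 and 4 with single siRNAs, 7 with no minimum, 5 over the 4 classes together and 0 to 4 when a library or number was left out. The difference at 3′ sites (0) became 1 with either siRNA alone and 1 over the 4 classes together, and 0 to 1 when a library or number was left out. Alternative 5′ sites (0) became 2 with filters over the compared libraries only and 2 over the 4 classes together, and their median PSI differed by −1.72 points.

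The mean PSI difference was −1.19 and −0.951 points for exons and 0.543 and 0.552 points for introns with siSF3B1-13 and siSF3B1-16 alone, and −1.12 to −1.03 and 0.495 to 0.659 points when a replicate number was left out, where the exact test no longer passed for exons without replicate 1, 2 or 3 and for introns without replicate 1. Directions turned with single siRNAs for CCNB1 (0.091, siSF3B1-13), EPHA2 (−0.30, siSF3B1-13), FOSL1 (0.33, siSF3B1-16), KIAA1199 (0.34, siSF3B1-16), the IFIT1 difference (−0.93, siSF3B1-16) the CNDP2 intron (1.08 points, siSF3B1-16) and the SPRED1 exon (0.265 points, siSF3B1-16). The cause was not tested.

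Replicate numbers did not pair the siSF3B1 libraries, since same-numbered libraries correlated at −0.09 to 0.03 in their deviations and 0 of 8 correlated best with its own number. With the replicate block 7724 genes, 335 exons and 33 introns were called for the response and 4115 genes, 47 exons and 1 intron for the difference.

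Over named genes, 3117 alternative values of the response kept direction and call and 24 lost the call, and over named events 541 kept and 43 lost it. The calls for SF1, RNF10, CNDP2 and FZR1 were lost most often, under 17, 14, 13 and 10 settings. The NAV1 difference was lost without replicate 2 or 3.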
